A study of Homo sapiens with 6 samples.

Results

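The semaphorin, ephrin and Slit guidance systems were followed through treatment with decitabine (DAC), an inhibitor of DNA methyltransferases, in human breast cancer cells. Members were chosen by symbol alone: the semaphorins, their plexin and neuropilin receptors, the EPHA and EPHB receptors, the EFNA and EFNB ephrin ligands, the SLIT ligands and the ROBO receptors. The rule found 60 genes among the 23617 symbols measured in MDA-MB-231, with 114 of the 43497 transcripts. The SLITRK genes, which share letters but not the family, were left out.

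RNA-seq was carried out on untreated cells and on cells that received 10 µM DAC for 72 h, in MDA-MB-231, a line from a metastatic breast carcinoma, and in HMLER, a line of human mammary cells transformed in vitro. Each library was prepared from pooled independent RNA extractions. MDA-MB-231 had 1 library per condition, so that its differences carry no replicate check and no p-value. HMLER had 2 libraries per condition, merged by the authors into 1 value each, and its table holds only transcripts that were more than 2-fold higher after DAC. A characteristics label of the untreated MDA-MB-231 library gives another line number, and the title of that library was followed. In bulk RNA, fewer cells of a type and less RNA per cell cannot be told apart.

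Guidance cues steer growing axons, migrating cells and vessels by contact or over a distance. Secreted class 3 semaphorins mostly signal through a neuropilin paired with a plexin, while membrane-bound semaphorins engage plexins directly. Ephrins are held on the cell surface and signal in both directions when they meet an Eph receptor tyrosine kinase on a neighbouring cell, and Slits repel cells through Robo receptors. In mammary tissue these families take part in duct growth, cell sorting and invasion.

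DAC lowers the methylation of CpG dinucleotides, and the promoters of 6 members are shown. They were chosen to cover members that were higher after DAC (SEMA3G, PLXNB1, EFNB1), members that were lower (PLXNA2, SEMA3C) and a member whose direction differed between the cell lines (ROBO4). Each runs 5′ to 3′ from 250 bases before to 50 bases after the transcription start listed by RefSeq (GRCh38.p14), and each matched hg19 at 1 place, whose position is given. Every CpG dinucleotide is in capitals.
SEMA3G (hg19 chr3:52479070-52479369, minus strand, 8 CpG): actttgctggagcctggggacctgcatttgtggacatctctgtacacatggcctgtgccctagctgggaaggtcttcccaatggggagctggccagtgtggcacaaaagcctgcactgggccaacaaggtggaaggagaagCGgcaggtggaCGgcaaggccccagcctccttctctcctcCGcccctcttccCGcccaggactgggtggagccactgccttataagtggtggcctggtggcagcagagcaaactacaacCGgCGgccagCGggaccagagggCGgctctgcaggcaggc
PLXNB1 (hg19 chr3:48471446-48471745, minus strand, 7 CpG): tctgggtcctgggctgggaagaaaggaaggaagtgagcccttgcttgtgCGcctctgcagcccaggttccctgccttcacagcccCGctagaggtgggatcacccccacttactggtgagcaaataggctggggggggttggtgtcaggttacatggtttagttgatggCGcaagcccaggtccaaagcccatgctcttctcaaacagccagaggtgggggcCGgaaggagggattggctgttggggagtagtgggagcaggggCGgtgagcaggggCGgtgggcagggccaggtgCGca
EFNB1 (hg19 chrX:68048614-68048913, plus strand, 18 CpG): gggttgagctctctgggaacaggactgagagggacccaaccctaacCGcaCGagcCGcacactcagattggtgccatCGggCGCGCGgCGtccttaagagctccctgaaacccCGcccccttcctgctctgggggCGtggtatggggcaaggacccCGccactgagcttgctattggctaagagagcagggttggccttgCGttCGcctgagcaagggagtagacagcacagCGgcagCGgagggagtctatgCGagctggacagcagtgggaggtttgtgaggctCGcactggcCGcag
PLXNA2 (hg19 chr1:208417680-208417979, minus strand, 29 CpG): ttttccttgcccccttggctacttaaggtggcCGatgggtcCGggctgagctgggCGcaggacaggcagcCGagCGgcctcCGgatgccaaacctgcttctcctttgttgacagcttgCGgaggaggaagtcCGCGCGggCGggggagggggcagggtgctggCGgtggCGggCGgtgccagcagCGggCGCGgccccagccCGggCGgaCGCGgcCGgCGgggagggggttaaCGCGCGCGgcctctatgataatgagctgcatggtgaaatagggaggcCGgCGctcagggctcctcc
SEMA3C (hg19 chr7:80548318-80548617, minus strand, 46 CpG): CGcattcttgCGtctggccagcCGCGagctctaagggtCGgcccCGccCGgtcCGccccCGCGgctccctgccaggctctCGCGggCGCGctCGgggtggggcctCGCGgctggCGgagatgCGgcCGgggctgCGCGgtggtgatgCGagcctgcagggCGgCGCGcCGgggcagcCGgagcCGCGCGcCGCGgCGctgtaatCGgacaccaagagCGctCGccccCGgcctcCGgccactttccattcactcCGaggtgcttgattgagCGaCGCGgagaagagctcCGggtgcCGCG
ROBO4 (hg19 chr11:124767712-124768011, minus strand, 11 CpG): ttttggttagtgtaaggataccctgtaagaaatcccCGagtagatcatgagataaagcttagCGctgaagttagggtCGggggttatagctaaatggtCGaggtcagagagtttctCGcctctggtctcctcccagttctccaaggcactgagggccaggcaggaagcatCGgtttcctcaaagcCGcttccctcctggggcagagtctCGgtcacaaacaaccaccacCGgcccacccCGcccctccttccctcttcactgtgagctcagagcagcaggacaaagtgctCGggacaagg

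The promoters differed widely in CpG content. Of the 60 members, 54 were matched in the promoter table used here. Where it lists several starts the one nearest the measured locus was taken. PLXNB1 and SEMA4G each have another listed start, with 46 CpG for PLXNB1, which had no match in hg19, and 25 for SEMA4G, against 7 and 9 at the starts taken. Other higher or lower members also have further starts. At these SEMA3C has 2 CpG, SEMA7A 45, PLXNC1 9, SEMA3E 1 and SEMA4B 6 and 37. The starts taken have 46, 23, 20, 6 and 32, and the medians below use only the starts taken. The search was for CG, which reads the same on both strands and which 96.0% of all 35116 promoters hold at least once. Members had a median of 26.5 CpG in the 300 bases (range 3 to 54), against 14 over all promoters, and 46 of the 54 members (85.2%) had 10 or more, against 56.4% of all promoters. The 7 members that were more than 2-fold higher after DAC had a median of 18 CpG (range 7 to 28), the 5 lower members with a promoter had 29 (range 6 to 46), the 22 others at 1 FPKM or more had 30.5 (range 6 to 54) and the 20 members under 1 FPKM had 25 (range 3 to 51). These ranges overlapped, and methylation itself was not analysed here.

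Levels are given as FPKM, fragments scaled to the length of the transcript and to the mapped fragments of the library, summed over the transcripts of a gene. A gene was counted as higher or lower when its DAC/untreated ratio was above 2 or under 0.5 and its sum reached 1 FPKM in at least 1 library. Of the 60 members, 38 reached 1 FPKM, 32 of them in both libraries. Another 6 of the 38 (SEMA3G, SEMA4G, SEMA6C, PLXNB1, PLXNC1 and EFNB3) reached it only after DAC, and 0 reached it only in untreated cells. Reaching it only after DAC forces a ratio above 1, though not above 2. The other 22 members stayed under 1 FPKM in both libraries. The 38 members spanned a wide range of levels, and EPHA2 and PLXNB2 together made up 42.9% of the members' summed FPKM in untreated cells and 39.6% after DAC.

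**Figure D1:**
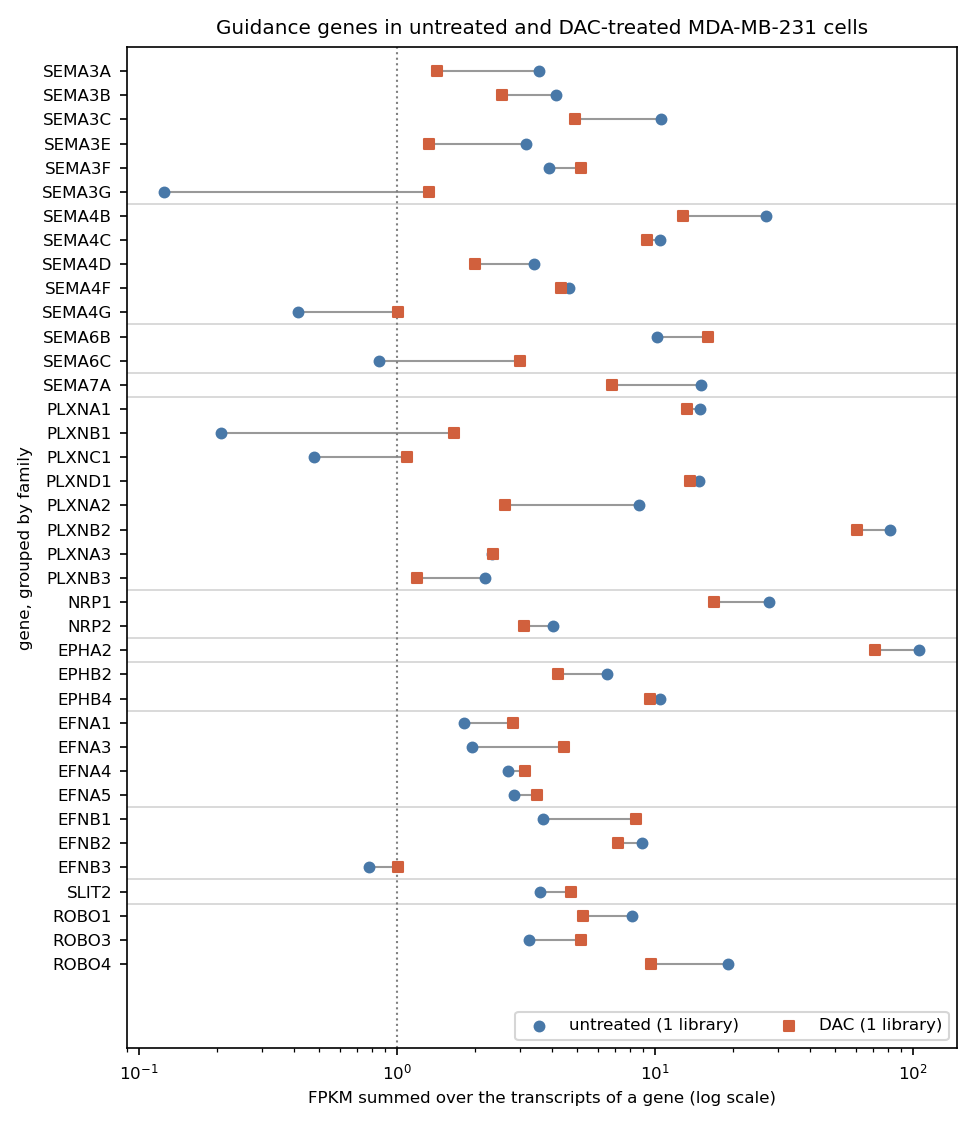
Summed FPKM (log axis) of the 38 members that reached 1 FPKM in untreated (circles) and DAC-treated (squares) MDA-MB-231 cells, 1 library each, with grey lines between families and a dotted line at 1 FPKM. EPHA2 and PLXNB2 lie far to the right in both libraries, and 6 members cross the dotted line from left to right.

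In MDA-MB-231, 7 members were higher after DAC, namely the ligands SEMA3G, SEMA4G, SEMA6C, EFNA3 and EFNB1 and the receptors PLXNB1 and PLXNC1. Another 6 were lower, namely the ligands SEMA3A, SEMA3C, SEMA3E, SEMA4B and SEMA7A and the receptor PLXNA2, and 25 were not called. The 7 higher members were 18.4% of the 38, where 10.8% of all 12525 symbols at 1 FPKM or more were higher. The 6 lower members were 15.8% of the 38, where 4.82% of all symbols were lower. Of the 7 higher members, EFNA3 and EFNB1 alone were at 1 FPKM or more in both libraries. With that stricter filter 2 of 32 members were higher (6.25%, against 4.37% of 11292 symbols) and the same 6 were lower (18.8%, against 4.13%). The members' largest transcripts were long, with a median of 4747 bases against 2810 for all symbols under that filter. Among symbols of 3000 bases or more, 6 of 28 members were lower, against 4.65% of 5228 symbols, and 1 of 28 was higher, against 2.72%. The part of transcript length in the counts was otherwise not tested.

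The median DAC/untreated ratio of all symbols at 1 FPKM or more in both libraries was 0.912, or -0.13 as a log2 ratio. Relative to it, SEMA3C and SEMA4B came to 0.505 and 0.522 and no longer passed the threshold, while the ratios of the 7 higher members stayed above 2. The median log2 change, with 1 FPKM added to each value, was -0.14 over the 38 members and -0.08 over all symbols. As deposited, 22 of the 38 members lay below a ratio of 1 and 16 above, and after division by the median ratio the split was 20 and 18, with SEMA4F and PLXND1 changing side.

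**Figure D2:**
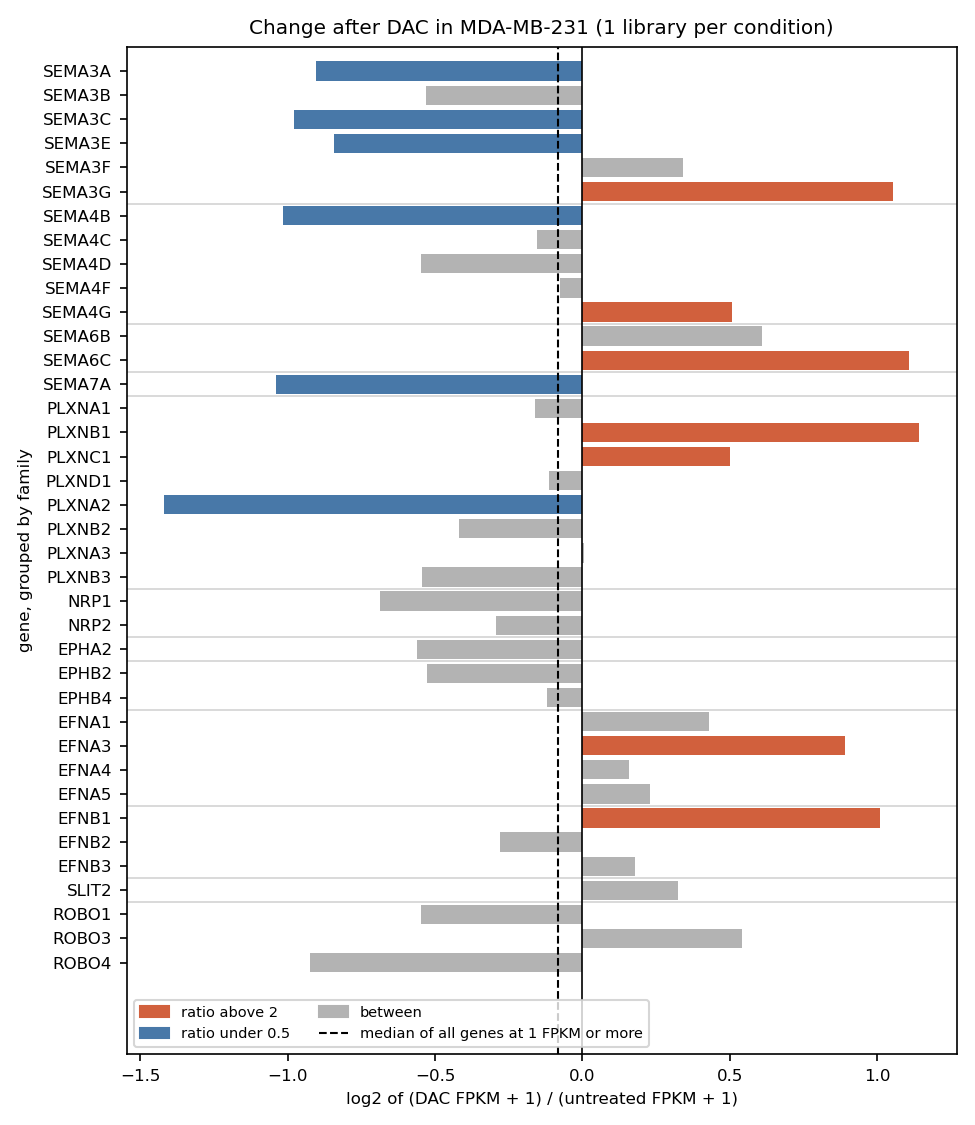
Change of the 38 members after DAC in MDA-MB-231 as log2 of (DAC FPKM + 1)/(untreated FPKM + 1), coloured by whether the plain ratio was above 2, under 0.5 or between, with a dashed line at the median of all symbols (-0.08). Changes in both directions occur within the class 3 and class 4 semaphorins and the plexins, and the EFNA ligands all lie to the right of 0.

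The secreted class 3 semaphorins split. SEMA3A, a repellent that binds neuropilin-1, was at 3.54 FPKM in untreated cells and 1.43 after DAC, a ratio of 0.403. SEMA3C, a secreted ligand that binds both neuropilins, was at 10.6 FPKM untreated, the highest level of the class, and 4.88 after DAC, a ratio of 0.461. SEMA3E, which binds PLXND1 without a neuropilin, was at 3.17 FPKM untreated and 1.33 after DAC, a ratio of 0.418. All 3 lie on chromosome 7 (SEMA3A chr7:83585093-84122040, SEMA3C chr7:80371854-80551675 and SEMA3E chr7:82992554-83278455, minus strand). SEMA3D, under 1 FPKM, lies there as well (chr7:84624869-84816372, minus strand) and had a ratio of 5.64, from 5 and 28 fragments. The share of lower symbols on chromosome 7 was not counted.

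SEMA3G, a class 3 member known from endothelium, went the other way, from 0.125 FPKM untreated to 1.33 after DAC, a ratio of 10.7. It lies at chr3:52467051-52479119 on the minus strand, has 1 transcript, and its values correspond to 24 and 254 fragments, for which the counting interval of the ratio ran from 6.998 to 16.9. Neither of the remaining members above 1 FPKM was called. SEMA3B, a candidate tumour suppressor, was at 4.15 FPKM untreated and 2.56 after DAC, while SEMA3F was at 3.87 and 5.18. SEMA3D, under 1 FPKM, stood at 5 and 28 fragments. The calls of SEMA3A, SEMA3C and SEMA3E ended when 1 FPKM was added to each value before the ratio. The summed level of class 3 was 25.5 FPKM untreated and 16.8 after DAC, a ratio of 0.660.

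The membrane-bound semaphorins also moved in both directions. SEMA4B, the highest of class 4, was at 26.9 FPKM in untreated cells and 12.8 after DAC, a ratio of 0.476 (chr15:90703836-90772911, plus strand). SEMA4G was at 0.413 and 1.01 FPKM, a ratio of 2.44, at a locus (chr10:102729261-102745628) that overlaps MRPL43, whose reads may be shared. SEMA4C was at 10.4 and 9.29 FPKM, SEMA4F at 4.62 and 4.33, and SEMA4D, the ligand of PLXNB1, at 3.39 and 1.9998. None of these 3 passed 2-fold.

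SEMA6C, a class 6 semaphorin with a transmembrane anchor, was at 0.850 FPKM untreated and 2.99 after DAC, a ratio of 3.51 (chr1:151104161-151119107, minus strand). SEMA6B, the highest of class 6, was at 10.1 and 16.0 FPKM, a ratio of 1.58 that did not pass. SEMA7A, the GPI-anchored semaphorin that binds PLXNC1 and integrins, was at 15.1 FPKM untreated and 6.82 after DAC, a ratio of 0.452 (chr15:74701630-74726299, minus strand). Both class 5 members stayed under 1 FPKM. SEMA5B and the class 4 member SEMA4A were listed at 0 in untreated cells.

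Among the plexins, PLXNA2 and PLXNB1 each had a transcript whose lower and upper Cuffdiff bounds did not overlap between the libraries, as given below. PLXNA2, a receptor for class 3 and class 6 semaphorins, was at 8.71 FPKM in untreated cells and 2.63 after DAC, a ratio of 0.302, from 4169 and 1252 fragments of its only transcript (chr1:208195587-208417729, minus strand). PLXNB1, the receptor of SEMA4D, was at 0.208 FPKM untreated and 1.67 after DAC, a ratio of 8.01 (chr3:48445261-48471495, minus strand). It reached 1 FPKM only after DAC. The bounds of its other transcript, NM_002673, overlapped, at 0 to 0.628 untreated and 0 to 1.13 after DAC. PLXNC1, the receptor of SEMA7A, was at 0.477 and 1.09 FPKM, a ratio of 2.28. Its largest transcript alone, NR_037687, was at 0.396 and 0.439 FPKM, which ended the call. The other PLXNC1 transcript, NM_005761, was at 0.0816 and 0.649 FPKM, a ratio of 7.96, and also stayed under 1 FPKM.

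The plexins with the highest levels were not called. PLXNB2 was at 81.3 FPKM untreated and 60.6 after DAC, PLXNA1 at 15.0 and 13.3, and PLXND1 at 14.8 and 13.6. PLXNA3 was at 2.34 and 2.36 FPKM, with 653 fragments in each library. PLXNB3 came to 2.19 and 1.19 FPKM, a ratio of 0.543. Of the neuropilins, the co-receptors of class 3 semaphorins, NRP1 was at 27.8 FPKM untreated and 16.9 after DAC, a ratio of 0.608, and NRP2 at 4.04 and 3.11, a ratio of 0.770. Neither was called.

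The lower and upper bounds that Cuffdiff gave each FPKM value were wide, and few members separated by them. Over all 17744 transcripts at 1 FPKM or more, the bounds of the libraries did not overlap, with DAC higher, in 1.01% and, with DAC lower, in 0.586%. Of the 48 member transcripts at 1 FPKM or more, 1 was separate with DAC higher and 1 with DAC lower. The first was NM_001130082 of PLXNB1, at 0.000462 FPKM untreated (bounds 0 to 0.0156) and 1.24 after DAC (bounds 0.132 to 2.34). The second was NM_025179 of PLXNA2, with bounds of 4.77 to 12.7 untreated and 1.22 to 4.04 after DAC. For SEMA3G the bounds, 0 to 0.348 untreated and 0.0723 to 2.60 after DAC, still overlapped, as they did for EFNB1 with 0.963 to 6.39 and 3.67 to 13.2.

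**Figure D3:**
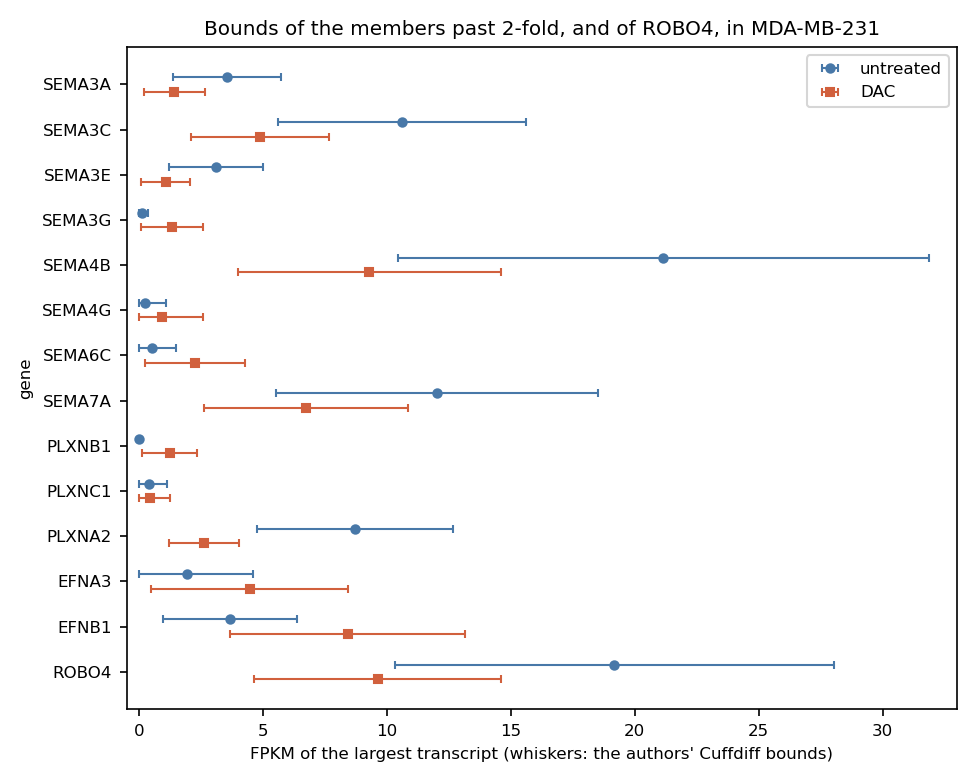
FPKM of the largest transcript of the 13 members past 2-fold and of ROBO4 in untreated (circles) and DAC-treated (squares) MDA-MB-231 cells, with whiskers from the lower to the upper Cuffdiff bound. The whiskers separate for PLXNA2 and PLXNB1 and overlap for the others.

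The ephrin system showed a different order of levels between receptors and ligands. EPHA2, an Eph receptor known for its high level in aggressive breast tumours, had the highest level of all members, at 106 FPKM in untreated cells and 71.5 after DAC, a ratio of 0.675 that was not called (chr1:16450832-16482564, minus strand). It was also the only one of the 9 EPHA receptors at 1 FPKM or more. EPHB4 was at 10.5 and 9.54 FPKM and EPHB2 at 6.52 and 4.22, and the other 3 EPHB receptors were under 1 FPKM. None of the Eph receptors at 1 FPKM or more passed 2-fold.

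Among the ephrins, EFNA3, a GPI-anchored ligand, was at 1.95 FPKM untreated and 4.46 after DAC, a ratio of 2.29, from 131 and 298 fragments (chr1:155051313-155060014, plus strand). EFNB1, a transmembrane ligand, was at 3.68 and 8.42 FPKM, also a ratio of 2.29, from 490 and 1115 fragments (chrX:68048864-68062003, plus strand). Counting intervals of these ratios were 1.86 to 2.83 for EFNA3 and 2.06 to 2.55 for EFNB1.

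The other ephrins above 1 FPKM were not called. EFNA1 was at 1.83 and 2.81 FPKM, EFNA4 at 2.70 and 3.13, EFNA5 at 2.84 and 3.50, and EFNB3 at 0.778 and 1.01. EFNB2, the highest ephrin in untreated cells, was at 8.90 FPKM untreated and 7.16 after DAC. The 4 EFNA ligands above 1 FPKM all had ratios above 1, as deposited and relative to the median ratio. The share of all symbols above a ratio of 1 was not counted. EFNA4 shares its locus with ADAM15 and DCST1, and the bounds of NM_005227 ran from 0 to 10.7 FPKM untreated and 0 to 10.4 after DAC. Summed, the EFNA ligands came to 9.33 FPKM untreated and 14.0 after DAC and the EFNB ligands to 13.4 and 16.6, while the EPHA receptors came to 107.5 and 73.2 and the EPHB receptors to 17.2 and 15.2.

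No Slit or Robo gene at 1 FPKM or more passed 2-fold in MDA-MB-231. SLIT2, the only Slit ligand above 1 FPKM, was at 3.57 FPKM untreated and 4.73 after DAC. ROBO4, a receptor known from endothelium, was the highest of its family, at 19.2 FPKM untreated and 9.62 after DAC (chr11:124753587-124768396, minus strand). Its ratio of 0.502 lay just outside the threshold for lower. ROBO1 was at 8.12 and 5.24 FPKM, and ROBO3 at 3.25 and 5.18. Of the endothelial markers PECAM1, CDH5, VWF, TEK, KDR and TIE1, TIE1 made up most of the sum, at 49.97 FPKM untreated and 47.1 after DAC of 50.5 and 48.7 for the list. PECAM1, CDH5, VWF and TEK were at 0.223 FPKM or less in both libraries.

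The 22 members under 1 FPKM were mostly above 0, with EPHA8 at 0 in both libraries. Of the 21 above 0, 13 were more than 2-fold higher after DAC (61.9%), where 63.3% of the 6071 symbols in this range were, and 1, ROBO2, was more than 2-fold lower (4.76%, against 7.84%). The share of higher members was thus near the background. EPHB3 was at 38 fragments untreated and 158 after DAC, a ratio of 4.18. EPHB6, an Eph receptor whose kinase is inactive, was chosen after its values were seen. It had 1 fragment untreated and 76 after DAC, for which the counting interval of the ratio ran from 13.3 to 3060.3. EFNA2 had 1 and 9 fragments, with an interval from 1.26 to 397.0. These examples were all higher. Of the low members with fragment numbers, EPHA4 with 227 and 170 and SEMA6A with 86 and 65 were lower in direction.

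Several members are measured through more than 1 transcript, and the share of each is an estimate of Cuffdiff. Of the 60 members, 28 had more than 1 transcript and 8 shared a locus with another symbol. In NRP2, NM_003872 was at 2.49 FPKM untreated and 0.455 after DAC, while NM_201279 was at 0.00107 and 1.03, and their bounds overlapped in both cases. In NRP1, NM_003873 was at 12.9 and 9.36 FPKM, and NM_001244973 at 3.09 and 0.00211. With only the largest transcript of each symbol, SEMA4G, PLXNC1 and SEMA7A lost their calls, and NRP2 and PLXNB3 were lower. The lower sum of SEMA7A was shared between NM_003612, at 12.02 and 6.73 FPKM, and NM_001146030, at 3.07 and 0.0878. The higher sum of PLXNB1 came mostly from NM_001130082, since NM_002673 was at 0.208 and 0.430 FPKM.

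**Figure D4:**
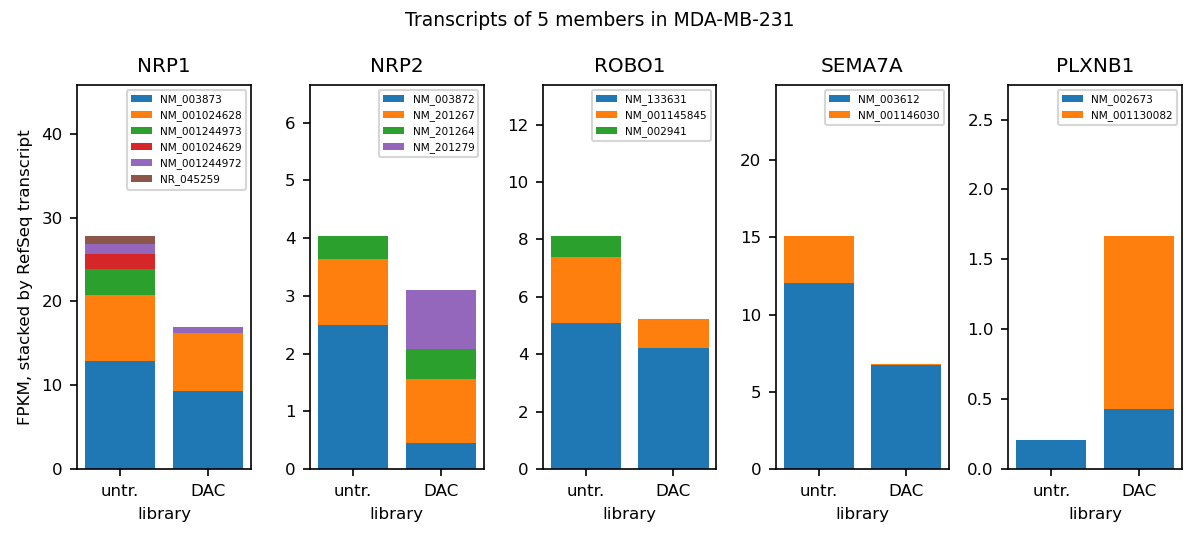
FPKM of NRP1, NRP2, ROBO1, SEMA7A and PLXNB1 in untreated (untr.) and DAC-treated MDA-MB-231 cells, stacked by RefSeq transcript, with each vertical axis on its own scale. The bars of NRP1 and SEMA7A lose segments or keep only a thin one after DAC, and those of NRP2 and PLXNB1 gain one.

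HMLER cells addressed whether the same members were higher after DAC in another line. The HMLER table held a transcript of 3 of the 60 members (5.00%), where it held 7.85% of all symbols measured in MDA-MB-231. All 3 were among the 38 members at 1 FPKM or more in MDA-MB-231 (7.89%, against 10.9% of symbols there). ROBO4 was at 2.06 FPKM in untreated HMLER cells and 7.60 after DAC, a ratio of 3.68. NRP2, through NM_201267, was at 1.44 and 3.79 FPKM, a ratio of 2.63. SEMA4D, through NM_001142287, was at 0.486 and 1.10 FPKM, a ratio of 2.27.

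In MDA-MB-231 the same transcripts did not rise, and the bounds of each overlapped between the libraries. That of ROBO4 had a ratio of 0.502, that of SEMA4D went from 1.49 to 0.905 FPKM, a ratio of 0.610, and that of NRP2 from 1.14 to 1.10 FPKM, a ratio of 0.965 that became 1.06 relative to the median ratio. Accordingly, 0 members were higher in both lines, where 3.66% of the 12525 symbols were. The untreated level of ROBO4 was 19.2 FPKM in MDA-MB-231 and 2.06 in HMLER, but these tables were scaled separately. Members that were lower or similar after DAC in HMLER were not analysed here.

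**Figure D5:**
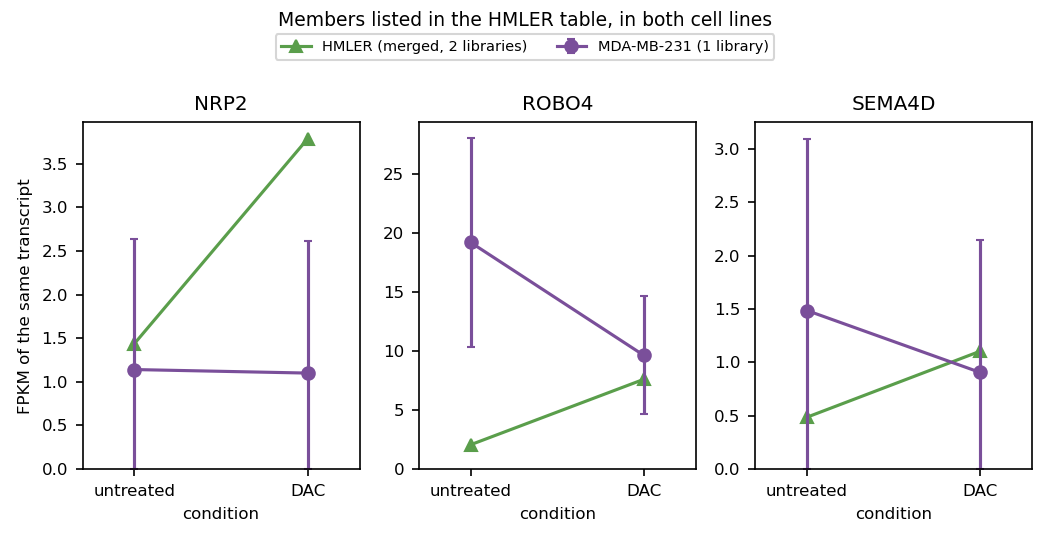
FPKM of the transcripts of NRP2, ROBO4 and SEMA4D listed for HMLER (triangles, 1 value per condition merged over 2 libraries, no error given) and of the same transcripts in MDA-MB-231 (circles, 1 library per condition, whiskers the Cuffdiff bounds). All 3 are higher after DAC in HMLER, by which the table was restricted. In MDA-MB-231 ROBO4 and SEMA4D are lower, with whiskers that overlap.

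Downstream of the receptors, a list of 70 signalling partners of plexins, Ephs and Robos was examined, of which 60 reached 1 FPKM in MDA-MB-231. Of these, 8 were higher after DAC (13.3%), 8 lower (13.3%) and 44 not called. Over all symbols the shares were 10.8% higher and 4.82% lower. Some of the higher partners, among them NGEF, RTN4R and FES, reached 1 FPKM only after DAC, which forces a ratio above 1. Partners at 1 FPKM or more in both libraries were not counted separately. The median log2 change of the 60 partners was -0.20. The lower partners included DOCK1, a Rac activator that works downstream of Robo and Eph signalling, at 18.7 FPKM untreated and 3.39 after DAC. YES1, a Src-family kinase, was at 199 and 59.1 FPKM, and RASA1, a Ras GTPase-activating protein that binds Eph receptors, at 32.2 and 15.3.

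Also lower were the plexin effectors FARP1 (26.7 and 12.8 FPKM) and CRMP1 (2.48 and 1.17), the adaptor NCK2 (18.3 and 8.05), the exchange factor VAV2 (17.9 and 7.43) and the adhesion molecule L1CAM (4.11 and 1.71), a partner of NRP1. The partners' ratios were not set against the median ratio. Those of FARP1 (0.480), CRMP1 (0.470) and RASA1 (0.474) lay near 0.5, and those of RRAS (2.004), RTN4R (2.01) and NGEF (2.14) lay near 2. The higher partners included SRC, at 7.43 and 19.2 FPKM, and RRAS, a small GTPase that plexins inactivate, at 24.9 and 49.9. Higher as well were MRAS (1.31 and 3.14 FPKM), the Eph-linked exchange factor NGEF (0.864 and 1.85), RTN4R (0.807 and 1.62) and the kinase FES (0.137 and 1.21). Of the 60 partners, 12 were in the HMLER table (20.0%, against 10.9% of all symbols at 1 FPKM or more), among them 2 of the 8 higher ones, which are not among those named here.

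The identity and depth of the MDA-MB-231 libraries were checked. Mesenchymal genes were high, with VIM at 3066 FPKM untreated and 1134 after DAC, while ESR1, PGR and CDH1 were at 0 in untreated cells and at most 0.179 after DAC. ERBB3, low in this line, was at 0.496 and 3.43 FPKM. The summed level of 6 neuronal markers was 1.80 FPKM untreated and 3.23 after DAC. Of these, RBFOX3 went from 1.59 to 0.305 FPKM and SYP from 0.168 to 2.59, and the others were at 0.115 or less. The summed level of 3 T and B cell markers was 0.0427 and 0.403 FPKM. The part of these markers in the members' values was not tested. From low values, which were whole multiples of 1 fragment, the libraries held about 42600000 (untreated) and 42300000 (DAC) fragments. Fragment numbers are given only for members that are the sole transcript of their symbol and locus, and their exact 95% intervals cover counting error only, not the variation between cultures.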

How the data were processed

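Untreated and DAC-treated cells were sequenced in 6 libraries. Reads were mapped by the authors with TopHat2 on hg19, and Cuffdiff gave FPKM for each RefSeq transcript. Versions and library scaling are not given in the sources used here. The deposited MDA-MB-231 table holds the FPKM of each library and, as signal on the same scale, the lower and upper bounds of Cuffdiff. The deposited HMLER table holds 1 FPKM value per condition and was already restricted to a DAC/untreated ratio above 2 and at least 1 FPKM after DAC (lowest ratio 2.00). Columns of the authors' own fold changes, p-values and q-values were not used.

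FPKM was summed over the transcripts of each symbol. Genes reaching 1 FPKM in at least 1 library were called past a ratio of 2 or under 0.5. log2 changes used a pseudocount of 1 FPKM, which understates changes of low genes. No count test was run, as the values are FPKM without replicates in the tables. Fragment numbers were read from the step of low values, with 200 bases taken off the transcript length (767 and 811 values, 100% within 0.1 of a whole number), and ratio intervals are exact binomial. Promoters came from the RefSeq table (GRCh38.p14), and the start nearest the measured locus was used. They were matched by sequence to GRCh37, the hg19 assembly. Gene positions are those of the GENCODE annotation lifted to GRCh37.

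Members, lists and thresholds were chosen with earlier results of these data known. Members at 1 FPKM or more could be named; those past 2-fold, in the HMLER table, with separate bounds or highest in their family are given in full. Partners past 2-fold are given with values, except for some that are not reported here. Alternatives were other filters and pseudocounts, division by the median ratio, the largest transcript, every transcript, and separate bounds. Scripts ran on pandas 2.3.3, numpy 2.4.6 and scipy 1.17.1 under Python 3.11.15, and figures were drawn with matplotlib 3.10.9.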

Additional observations from a re-analysis of the deposited data

Results flagged for a closer look

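The transcripts of ROBO4 and SEMA4D went in opposite directions in the 2 cell lines. ROBO4 had a DAC/untreated ratio of 3.68 in HMLER and 0.502 in MDA-MB-231, and SEMA4D had 2.27 and 0.61. In MDA-MB-231 neither was called lower, and the bounds overlapped for both. They were 10.3 to 28.0 untreated and 4.64 to 14.6 after DAC for ROBO4, and 0 to 3.09 and 0 to 2.15 for SEMA4D. Each condition has 1 value in either line, merged over libraries in HMLER, so the difference between the lines was not tested. The HMLER table lists only transcripts that were higher, so members that were lower there could not be set against MDA-MB-231.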

How the results depend on the processing

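The 7 members higher after DAC in MDA-MB-231 became 20 with no filter on low values, 2 at 1 FPKM or more in both libraries, 1 at 5 FPKM or more, 1 with bounds that do not overlap and 4 with 1 FPKM added before the ratio, which ended the calls of SEMA4G, PLXNC1 and EFNA3. The 6 lower members became 11 when every transcript was taken, 1 with bounds that do not overlap and 3 with 1 FPKM added, which ended the calls of SEMA3A, SEMA3C and SEMA3E. With the largest transcript of each symbol 5 were higher and 7 lower. The members' median log2 change of -0.14 became 0.0235 with no filter, -0.29 at 1 FPKM or more in both, -0.42 at 5 FPKM or more, -0.0176 after division by the median ratio, -0.16 with the largest transcript, and -0.15 and -0.14 with pseudocounts of 0.1 and 0.5. The 3 HMLER members became 1 at 5 FPKM or more after DAC and 1 with 1 FPKM added. The 0 members higher in both lines became 1 when every transcript was taken, which was NRP2 through another transcript in MDA-MB-231 than in HMLER. For 16 members past 2-fold or compared between the lines, the direction of the value by symbol in MDA-MB-231 was followed. It was the same after division by the median ratio and with the largest transcript. The other pseudocounts could not change it, since the same value is added to both libraries. Division by the median ratio could not reverse a member past 2-fold either. The NRP2 transcript that was compared with HMLER did change side, from a ratio of 0.965 to 1.06 relative to the median ratio. The stricter filters kept fewer members, 32 at 1 FPKM or more in both libraries and 19 at 5 FPKM or more. The filter on both libraries also leaves out the members that reached 1 FPKM only after DAC. What caused the differences between settings was not tested. No paired analysis was possible because either table gives 1 value per condition, and leaving out a replicate or a fit with limma was not run for the same reason. Depth limits the members with few fragments, such as EPHB6 and EFNA2 with 1 fragment each in untreated cells.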
